A study of Homo sapiens with 16 samples.

Results

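The 8 genes described here encode the inducible parts of the pathway that cuts cytosolic proteins into peptides and loads them on MHC class I molecules. They are the immunoproteasome catalytic subunits PSMB8, PSMB9 and PSMB10, the proteasome activator subunits PSME1 and PSME2, the peptide transporter subunits TAP1 and TAP2, and TAPBP, which encodes tapasin. The genes were chosen by name, for their role. The rule uses no measured value, although earlier results of these data were known when it was written. The array named 20503 gene symbols through the accessions of its probes, and all 8 genes were among them, with 11 of the 50599 gene probes. PSMB8, PSMB9, PSMB10, PSME1, PSME2 and TAP1 had 1 probe each, TAP2 had 2 and TAPBP had 3. All 11 probes passed the filter on low signal. The probe with the highest mean signal stands for a gene below, and each of these 8 probes was well above background, by the test of the scanner software, on all 16 arrays and saturated on none.

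Gene expression had been measured in LP-1, a human multiple myeloma cell line. LP-1-cIAP2-eGFP cells had been made with a lentivirus from the pIRES2 plasmid that carries cIAP2 (the product of BIRC3, an inhibitor of apoptosis) together with eGFP, and the control cells, LP-1-eGFP, with the same plasmid carrying eGFP alone. Both lines had been sorted, keep their own BIRC3 gene, and share the TRAF3 defect of LP-1, whose TRAF3 lacks the MATH domain that binds the kinase NIK. No promoter is named for the transgene, and each line is 1 transduced population, so a difference between the lines cannot be told apart from any other difference between these populations. Each line had been left untreated or given 10 nM of the proteasome inhibitor bortezomib, for 6 h or 24 h, with 2 biological replicates in each of the 8 conditions.

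Of 9 plasma cell markers, 7 were well above background on all 16 arrays, among them SDC1 (syndecan-1), XBP1 and CD38, while PRDM1 was so on 15 and SLAMF7 on 13. The B cell genes MS4A1 and PAX5, the myeloid gene CSF1R and the stromal genes COL3A1 and PDGFRB were above background on no array, whereas CD2 was above it on 15 arrays, CD14 on 13, CD3D on 12, CD3E and COL1A1 on 10 and CD22 on 1. An array stood apart before any comparison. Replicate 1 of the bortezomib-treated LP-1-cIAP2-eGFP cells at 24 h had a median log2 signal of 3.18, against 5.73 to 6.64 on the other 15 arrays, and 35.5% of its spots were above background, against 49.0% to 71.1%. The log2 differences between its probes and those of its replicate had an SD of 1.48, against 0.495 to 0.773 within the other conditions. The main results for that condition are therefore also given without this array.

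The proteasome degrades ubiquitinated proteins in a barrel, the 20S core, with catalytic subunits inside it. In the constitutive barrel these are PSMB5, PSMB6 and PSMB7. Interferon gamma is known to induce PSMB8, PSMB9 and PSMB10, which replace them when new barrels are built and so form the immunoproteasome, and cells of the lymphoid lineage, plasma cells included, make it without an added stimulus. PSME1 and PSME2 form the PA28 cap that opens the barrel. TAP1 and TAP2 pump the peptides into the endoplasmic reticulum, where tapasin holds an empty class I molecule next to the pump. Bortezomib blocks the site of PSMB5 and the matching site of PSMB8. Cells answer a blocked proteasome by raising the genes of the constitutive barrel, a response that depends on the transcription factor NFE2L1. The question here is what happens in such cells to the inducible genes.

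The sequences below show where the promoters of these genes carry the response element that interferon regulatory factors bind. Windows of 250 bases before and 50 bases from the start of each gene were taken from RefSeq on GRCh38.p14 and searched on both strands for GAAANNGAA, the core of that element. The core was in a window of 7 of the 8 genes, and in 8.11% of 35116 windows of the whole table. Here and below a gene counts if any of its windows matches, and PSMB8 and TAP1 had more than 1, while the percentage is per window. It is printed in capitals on the strand that spells it, with 7 bases on either side in lower case, and overlapping matches in TAP1 and TAPBP are printed as 1 run.
PSMB8, chr6:32844035-32844057, + strand: aggaagtGAAAGCGAAagccaca
PSMB10, chr16:67936856-67936878, - strand: taaaggcGAAAGCGAAagcagga
PSME1, chr14:24136193-24136215, - strand: gcgaaggGAAAGCGAAagcggta
PSME2, chr14:24146623-24146645, - strand: ggggagtGAAAGCGAAagcccgg
TAP1, chr6:32853816-32853844, + strand: tttagggGAAAGCGAAATCGAAagcggcc
TAP2, chr6:32838782-32838804, - strand: gggaagcGAAAGCGAAagctgcc
TAPBP, chr6:33314077-33314105, - strand: tttggagGAAAGTGAAAGTGAAaggagga
The core reads GAAAGCGAA in 6 of the genes, with GAAATCGAA overlapping it in TAP1, and GAAAGTGAA in TAPBP. With the first base of the transcript as position 0, it lies at -133 to -119 in TAP1, -58 to -50 in TAP2, -28 to -20 in PSME2, -21 to -13 in PSMB10 and -20 to -6 in TAPBP. In PSMB8 it lies at -3 to 5 and in PSME1 at 6 to 14, so that it reaches into or lies in the transcript.

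The window of PSMB9 holds no such core, but PSMB9 and TAP1 are neighbours that are read in opposite directions, and their windows overlap by 13 bases. The 250 bases before the start of each are shown for that reason. In TAP1 the capitals mark, in this order on the strand of the gene, the interferon response element core and an NF-kB site, searched as GGGANTTNC, and in PSMB9 they mark a match to TGACNNNGC, the core of the antioxidant response element.
TAP1, chr6:32853705-32853954, - strand: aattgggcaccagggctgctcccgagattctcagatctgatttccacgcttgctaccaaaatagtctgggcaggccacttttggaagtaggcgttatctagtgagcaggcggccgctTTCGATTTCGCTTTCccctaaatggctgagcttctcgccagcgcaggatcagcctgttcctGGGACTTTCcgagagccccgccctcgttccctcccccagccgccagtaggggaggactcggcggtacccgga
PSMB9, chr6:32853942-32854191, + strand: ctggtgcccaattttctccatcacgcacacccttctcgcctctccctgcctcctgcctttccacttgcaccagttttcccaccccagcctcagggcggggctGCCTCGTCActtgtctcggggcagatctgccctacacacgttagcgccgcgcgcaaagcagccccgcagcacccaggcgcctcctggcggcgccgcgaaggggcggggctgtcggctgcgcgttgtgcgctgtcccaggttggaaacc
The NF-kB site was in windows of TAP1 and TAPBP and in 4.54% of all windows. The antioxidant core was in windows of PSMB9, PSME1 and PSME2 and in 13.3% of all windows. A match to the gamma activated site, searched as TTCNNNGAA, was in windows of PSMB8 and TAP1 and in 7.66% of all windows, and that of TAP1 lay in the window of another start of the gene than the one shown. Of the constitutive counterparts, the table had windows of PSMB5, which held the gamma activated site and none of the other 3 motifs. A match is a description of the letters in a window and not a site shown to be used.

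With bortezomib at 24 h, all 8 genes were lower than in untreated cells, in control and in LP-1-cIAP2-eGFP cells alike. TAPBP fell the furthest, 3.34-fold as a mean of both lines, and PSMB10 the least, 1.55-fold. The constitutive subunits PSMB5, PSMB6 and PSMB7 moved the opposite way and were higher in both lines. Signals below are normalized log2 values, each difference is bortezomib minus untreated on the log2 scale with its standard error, and the adjusted p is that of limma's moderated test across 33715 probes with Benjamini-Hochberg adjustment. In control cells 11.2% of all probes were called lower at an adjusted p under 0.05, in LP-1-cIAP2-eGFP cells 17.5%, and on the mean of both lines 19.7%. The median log2 difference over all tested probes was -0.09 on that mean, and over the 8 genes it was -1.09.

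**Figure D1:**
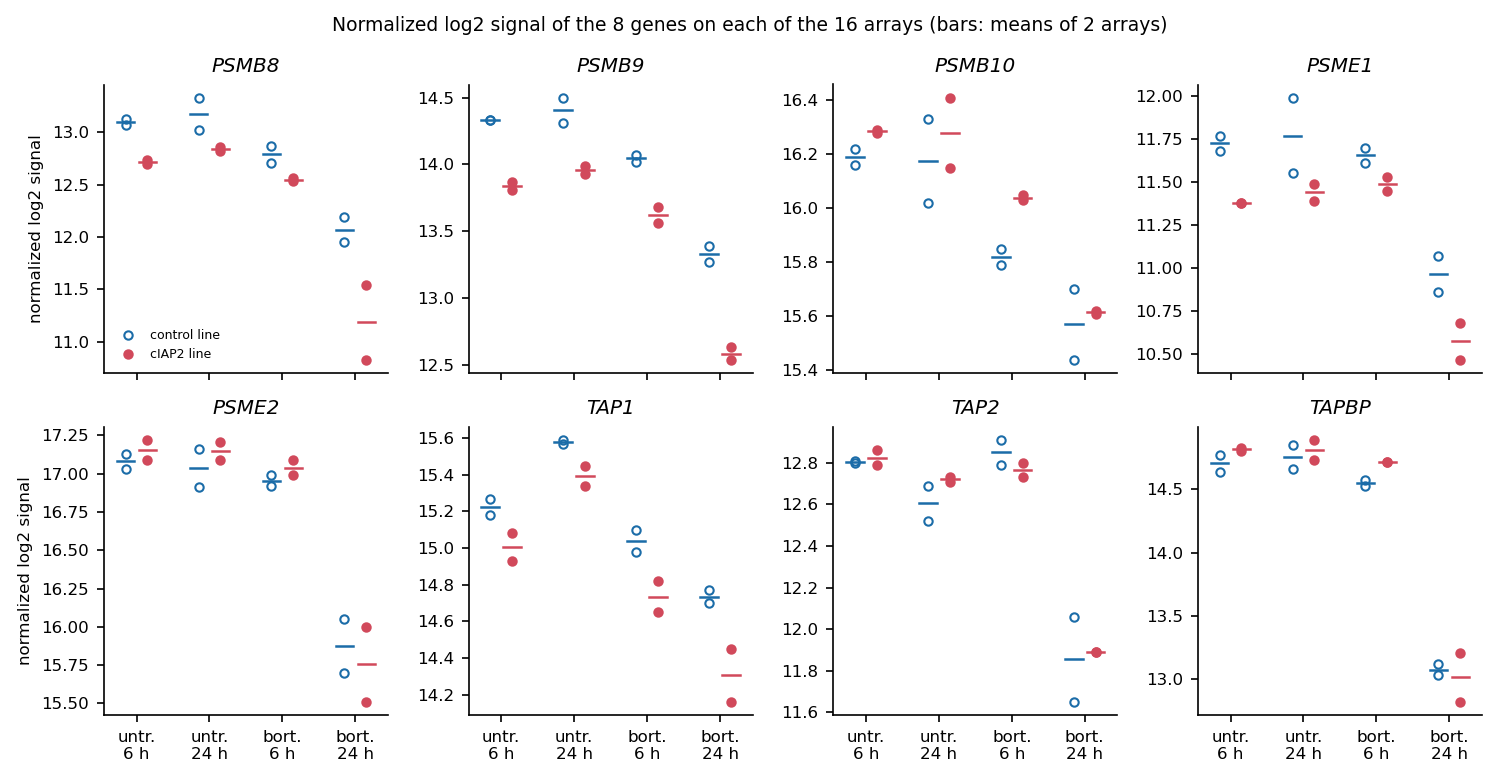
Normalized log2 signal of each of the 8 genes on the 16 arrays, with open blue points for control and filled red points for LP-1-cIAP2-eGFP cells and bars at the mean of 2 arrays; untr. is untreated, bort. is bortezomib, and each panel has its own axis. The 4 arrays with bortezomib at 24 h, the weak array among them, lie below the other 12 for every gene but TAP1, whose arrays overlap. The share of all probes with such a gap is not given here.

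Among the catalytic subunits, PSMB8 takes the place of PSMB5, the chymotrypsin-like site. At 24 h its log2 signal was 13.02 and 13.33 in untreated control cells and 11.95 and 12.19 with bortezomib. In LP-1-cIAP2-eGFP cells it was 12.82 and 12.86 untreated and 10.83 and 11.54 with bortezomib, the lowest value being that of the weak array. The treated arrays were below the untreated ones in both lines, and the replicates with bortezomib in LP-1-cIAP2-eGFP cells differed the most. The difference was -1.11 ± 0.218 in control cells (adjusted p = 0.00535) and -1.66 ± 0.218 in LP-1-cIAP2-eGFP cells (adjusted p = 0.00045), or -1.30 without the weak array.

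PSMB9, which replaces PSMB6, had the smallest standard error of the 3 subunits. Its signal at 24 h was 14.31 and 14.50 in untreated and 13.27 and 13.39 in treated control cells, and 13.93 and 13.99 in untreated and 12.54 and 12.63 in treated LP-1-cIAP2-eGFP cells. The 4 groups of arrays did not overlap, with untreated control cells highest and treated LP-1-cIAP2-eGFP cells lowest. The difference was -1.08 ± 0.126 in control (adjusted p = 0.000302) and -1.37 ± 0.126 in LP-1-cIAP2-eGFP cells (adjusted p = 6.36e-05).

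PSMB10, which replaces PSMB7, moved the least of the 8. Its signal was 16.02 and 16.33 in untreated and 15.44 and 15.70 in treated control cells, and 16.15 and 16.41 in untreated and 15.62 and 15.61 in treated LP-1-cIAP2-eGFP cells. Treated and untreated arrays were apart in both lines, and the lines overlapped. The difference was -0.61 ± 0.155 in control (adjusted p = 0.0198) and -0.66 ± 0.155 in LP-1-cIAP2-eGFP cells (adjusted p = 0.0107).

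Both subunits of the PA28 cap were lower, PSME2 by more than PSME1. PSME1 measured 11.55 and 11.99 in untreated and 10.86 and 11.07 in treated control cells, and 11.39 and 11.49 in untreated and 10.47 and 10.68 in treated LP-1-cIAP2-eGFP cells. PSME2 measured 16.91 and 17.16 in untreated and 15.70 and 16.05 in treated control cells, and 17.09 and 17.21 in untreated and 15.51 and 16 in treated LP-1-cIAP2-eGFP cells. No treated array reached an untreated one for either gene. The difference of PSME1 was -0.80 ± 0.167 in control (adjusted p = 0.00692) and -0.87 ± 0.167 in LP-1-cIAP2-eGFP cells (adjusted p = 0.00371). That of PSME2 was -1.15 ± 0.192 (adjusted p = 0.00212) and -1.40 ± 0.192 (adjusted p = 0.000573).

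The transporter subunits fell by similar amounts in control cells. TAP1 measured 15.57 and 15.59 in untreated and 14.77 and 14.70 in treated control cells, and 15.45 and 15.34 in untreated and 14.16 and 14.45 in treated LP-1-cIAP2-eGFP cells. TAP2 measured 12.69 and 12.52 in untreated and 11.65 and 12.06 in treated control cells, and 12.73 and 12.71 in untreated and 11.89 on both arrays in treated LP-1-cIAP2-eGFP cells. Treated and untreated arrays of 24 h were apart for both genes. The difference of TAP1 was -0.84 ± 0.145 in control (adjusted p = 0.00257) and -1.09 ± 0.145 in LP-1-cIAP2-eGFP cells (adjusted p = 0.000473). For TAP2 it was -0.75 ± 0.153 (adjusted p = 0.00637) and -0.84 ± 0.153 (adjusted p = 0.00284). The dimmer probe of TAP2, which carries the accession of another transcript, was also lower in both lines, by -1.22 ± 0.245 and -2.16 ± 0.245.

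TAPBP, whose product tethers class I molecules to the transporter, had the largest difference of the 8. It measured 14.85 and 14.66 in untreated and 13.03 and 13.12 in treated control cells, and 14.89 and 14.73 in untreated and 12.82 and 13.21 in treated LP-1-cIAP2-eGFP cells. The gap between treated and untreated arrays was several times the gap within a pair. The difference was -1.68 ± 0.155 in control (adjusted p = 8.6e-05) and -1.80 ± 0.155 in LP-1-cIAP2-eGFP cells (adjusted p = 4.52e-05), a 3.34-fold drop as a mean of both lines. Of its other probes, the first gave -1.59 ± 0.199 and -1.62 ± 0.199. The dimmest gave -0.74 ± 0.371 in control cells, which did not pass the threshold, and -1.37 ± 0.371 in LP-1-cIAP2-eGFP cells, which did, but it was not above background on the weak array and gave -0.69 without it. On that array the dimmer probe of TAP2 and the other probe of TAPBP were not above background either, and without it they gave -1.84 and -1.45.

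Without the weak array all 8 genes were still called lower in LP-1-cIAP2-eGFP cells. The differences were then -1.61 for TAPBP, -1.32 for PSMB9, -1.30 for PSMB8, -1.15 for PSME2, -0.94 for TAP1, -0.84 for TAP2, -0.76 for PSME1 and -0.67 for PSMB10. The count in control cells depended more on single arrays. Without replicate 2 of untreated control cells at 24 h 6 of the 8 were called lower, and normexp background correction gave 6 as well. Without replicate 1 of control cells with bortezomib at 24 h, 4 of the 8 were called lower, PSMB9, PSME2, TAP1 and TAPBP, and the differences of the 8 ranged from -1.63 to -0.48. Weighting arrays by noise left 5 of 8 called in LP-1-cIAP2-eGFP cells. Both replicates of a condition got the same weight, so the weak array and its replicate were weighted alike, at 0.121. The arrays had been run on 2 slides. With the slide as a block 7 of 8 were called lower in control cells, PSMB10 being the exception, and 8 in LP-1-cIAP2-eGFP cells, and within a slide all 8 genes were again lower, by -1.88 to -0.53 in LP-1-cIAP2-eGFP cells on slide 1 (2 treated arrays, 1 untreated) and by -1.63 to -0.48 in control cells on slide 2 (1 treated, 2 untreated). As these are bulk samples, fewer cells that express a gene and less of its RNA per cell cannot be told apart. Plasma cell markers moved too, with 7 of 9 lower and 1 higher at 24 h on the mean of both lines, against 19.7% and 15.1% of all probes, SDC1 by -2.46 and CD38 by -1.92. Their part in the drop of the 8 genes was not tested.

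**Figure D2:**
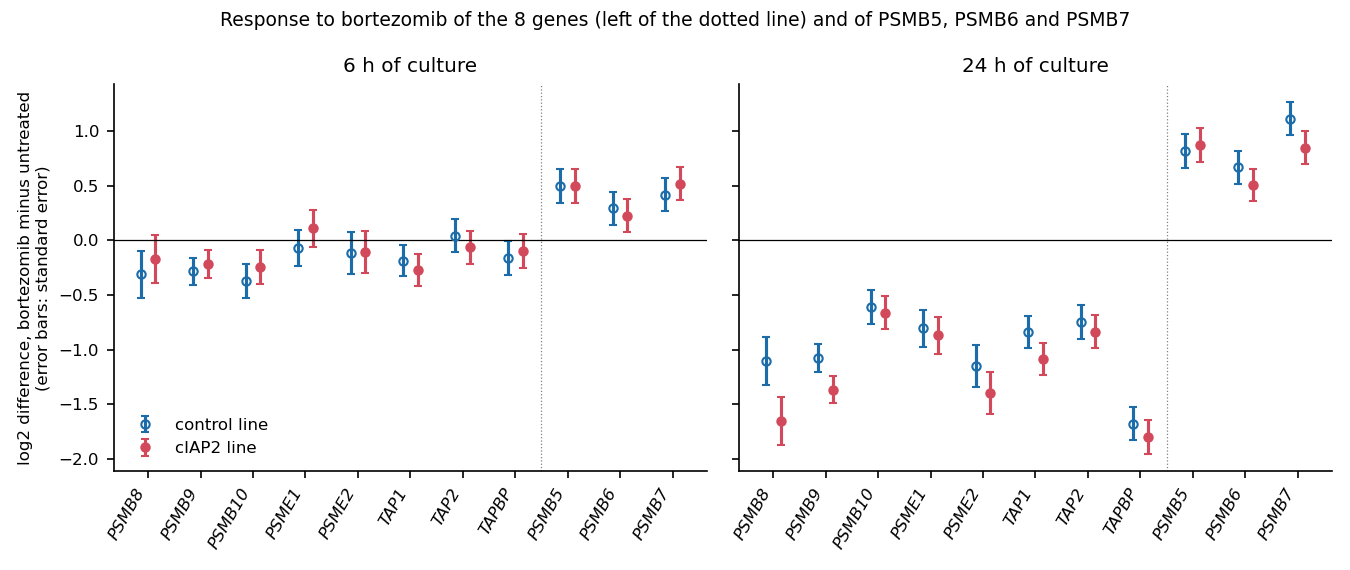
Log2 difference between bortezomib and untreated cells at 6 h and 24 h, with its standard error, in control (open blue) and LP-1-cIAP2-eGFP cells (filled red), for the 8 genes and, right of the dotted line, the constitutive counterparts. At 24 h the 8 genes lie between -1.80 and -0.61, and PSMB5, PSMB6 and PSMB7 between 0.51 and 1.12.

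The constitutive counterparts rose at 24 h in both lines. PSMB5 was higher by 0.82 ± 0.156 in control (adjusted p = 0.00431) and 0.88 ± 0.156 in LP-1-cIAP2-eGFP cells (adjusted p = 0.00242). PSMB6 was higher by 0.67 ± 0.151 and 0.51 ± 0.151 (adjusted p = 0.0105 and 0.0313). PSMB7 was higher by 1.12 ± 0.151 and 0.85 ± 0.151 (adjusted p = 0.000656 and 0.0024). The share of all probes called higher was 9.82% in control cells, 11.1% in LP-1-cIAP2-eGFP cells and 15.1% on the mean of both lines. Per line these calls depended on the scaling: with arrays scaled to their 75th percentile, 1 of the 3 was called higher in control and 0 in LP-1-cIAP2-eGFP cells, while all 3 kept a positive difference under each alternative. On the mean of both lines 2 of the 3 were called with that scaling. In LP-1-cIAP2-eGFP cells PSMB6 lost its call in 11 of 16 fits that left out an array. Without the weak array the differences there were 1.00 for PSMB5, 0.69 for PSMB6 and 1.05 for PSMB7, all called.

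The ratio of an inducible subunit to the one it replaces, taken from the scanner signals of a single array, needs no scaling between arrays. Only its shift between arrays is read here, since the levels of different probes are not comparable. For PSMB8 over PSMB5 the log2 ratio was -1.63 and -1.57 in untreated and -3.49 and -3.43 in treated control cells at 24 h, and -1.49 and -1.78 in untreated and -4.27 and -3.93 in treated LP-1-cIAP2-eGFP cells. These are shifts of -1.86 and -2.46, or 3.64-fold and 5.51-fold. For PSMB9 over PSMB6 the shift was -1.92 in control and -2.04 in LP-1-cIAP2-eGFP cells, and for PSMB10 over PSMB7 -1.85 and -1.48. Without the weak array the shifts in LP-1-cIAP2-eGFP cells were -2.29, -2.15 and -1.70, in the same order. At 6 h the 3 ratios were already lower on both treated arrays than on both untreated arrays of each line, with shifts from -0.89 to -0.53. A ratio shows that the subunits of a pair changed unequally, and no test was run on it.

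**Figure D3:**
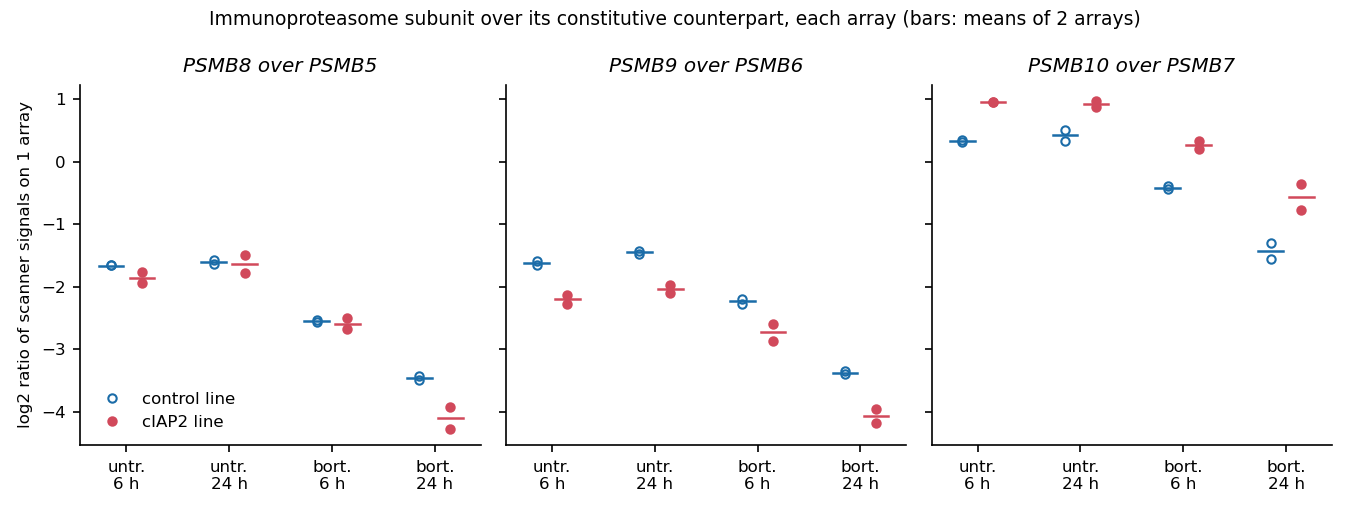
Log2 ratio of the scanner signals of PSMB8 to PSMB5, PSMB9 to PSMB6 and PSMB10 to PSMB7 on each array, with bars at the mean of 2 arrays, for control (open blue) and LP-1-cIAP2-eGFP cells (filled red). In each panel and line both arrays with bortezomib lie below both untreated arrays of the same time, by more at 24 h than at 6 h.

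At 6 h none of the 8 genes was called different from untreated cells, and the differences were smaller than at 24 h. PSMB8 measured 13.07 and 13.13 in untreated and 12.71 and 12.87 in treated control cells, and 12.70 and 12.73 in untreated and 12.53 and 12.56 in treated LP-1-cIAP2-eGFP cells. PSMB10 measured 16.16 and 16.22 in untreated and 15.79 and 15.85 in treated control cells, and 16.29 and 16.28 against 16.05 and 16.03 in LP-1-cIAP2-eGFP cells. For both genes the treated arrays lay below the untreated ones in each line. On the mean of both lines the differences ran from -0.31 ± 0.11 for PSMB10 to 0.02 ± 0.118 for PSME1, with 7 of 8 below 0. By limma none of the 8 passed an adjusted p of 0.05 there, in control or in LP-1-cIAP2-eGFP cells, while 2 (PSMB9 and PSMB10) had an unadjusted p under 0.05 on the mean and in control cells, and 0 in LP-1-cIAP2-eGFP cells. Of all probes 2.74% were called lower and 3.19% higher on the mean, 1.95% in either direction in control and 1.09% in LP-1-cIAP2-eGFP cells. The call depends on the setting. With each condition weighted by the noise of its arrays, PSMB9, PSMB10 and TAP1 were called on the mean. With the test restricted to probes above background on all arrays, PSMB9 and PSMB10 were. PSMB5 (0.50 ± 0.11, adjusted p = 0.028) and PSMB7 (0.47 ± 0.106, adjusted p = 0.0314) were called higher on the mean at 6 h. In single lines neither passed, with adjusted p from 0.179 to 0.261, and of 16 fits that left out an array PSMB5 lost its call in 9 and PSMB7 in 13.

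Between the lines, 4 of the 8 genes were lower in LP-1-cIAP2-eGFP cells on the average of the 4 conditions. PSMB9 differed the most, by -0.53 ± 0.0631 (adjusted p = 0.000349), followed by PSMB8 at -0.46 ± 0.109 (adjusted p = 0.0168), PSME1 at -0.31 ± 0.0834 (adjusted p = 0.032) and TAP1 at -0.29 ± 0.0723 (adjusted p = 0.0236). For each of the 4, both LP-1-cIAP2-eGFP arrays lay below both control arrays in all 4 conditions. The same held for the counterparts PSMB5 and PSMB7, and the share of all probes with this order is not given here. The other 4 of the 8 genes had differences from 0.02 (TAP2) to 0.12 (PSMB10) that did not pass the threshold. Of all probes 9.84% were called lower and 6.26% higher. With arrays scaled to their 75th percentile PSMB9 was the only one of the 8 still called. Of the counterparts, PSMB7 was lower too (-0.53 ± 0.0753, adjusted p = 0.00104). Leaving out any of 8 arrays (replicate 1 of LP-1-cIAP2-eGFP cells untreated or treated at 6 h, both replicates of control cells untreated or treated at 6 h, and replicate 2 of either line untreated at 24 h) left PSMB8 and PSMB9 as the only calls among the 8 genes.

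The differences were also below 2-fold. The study took genes from its 3-way ANOVA where the adjusted p was below 0.001 and the lines differed over 2-fold in untreated cells, and from its comparison of 2 groups where the p, taken here as unadjusted, was below 0.005 with the same fold. None of the 8 met either criterion, against 2.37% and 3.54% of all probes. At an unadjusted p under 0.05, 4 of the 8 passed in the 3-way fit and 0 in the fit of 2 groups. The slide and the line were partly confounded, with 6 LP-1-cIAP2-eGFP and 2 control arrays on slide 1. With the slide as a block only PSMB9 kept its call (adjusted p = 0.0057), and PSMB8, TAP1 and PSME1 had adjusted p of 0.105, 0.0946 and 0.193. Within a slide, PSMB9 was lower by -0.46 and -0.52 on slides 1 and 2 in untreated cells at 6 h (1 array against 1), by -0.42 at 24 h on slide 2 and by -0.69 with bortezomib at 24 h on slide 1. PSMB8, PSME1 and TAP1 were also lower in each of these within-slide comparisons.

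**Figure D4:**
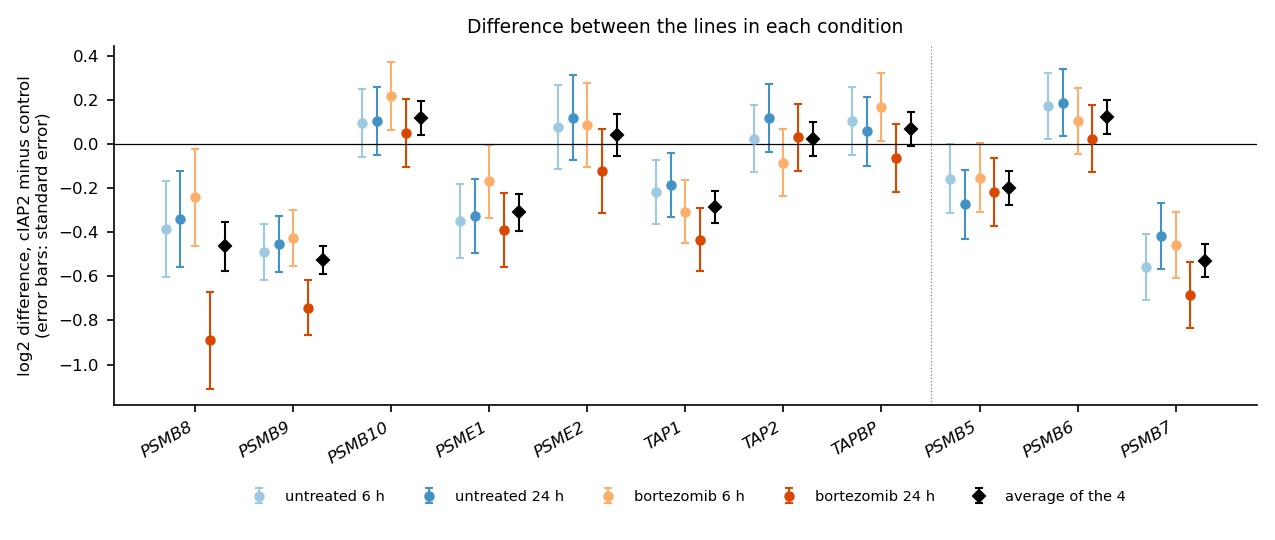
Log2 difference between LP-1-cIAP2-eGFP and control cells, with its standard error, in each condition (circles) and on their average (diamonds), for the 8 genes and, right of the dotted line, their constitutive counterparts. PSMB8, PSMB9, PSME1 and TAP1 lie below 0 in every condition, PSMB10 lies above 0 in every condition, and PSME2, TAP2 and TAPBP lie on both sides of it.

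In single conditions the lines differed for few of the 8. In untreated cells PSMB9 was lower in LP-1-cIAP2-eGFP cells by -0.49 ± 0.126 at 6 h and -0.45 ± 0.126 at 24 h, and with bortezomib at 6 h by -0.43 ± 0.126. By limma none of the 8 passed an adjusted p of 0.05 in these 3 conditions, and PSMB9 alone had an unadjusted p under 0.05 in each. The shares of all probes called lower were 2.08%, 1.94% and 2.22%. With bortezomib at 24 h PSMB8 (-0.89 ± 0.218, adjusted p = 0.0445) and PSMB9 (-0.74 ± 0.126, adjusted p = 0.00995) were called lower, against 3.86% of all probes. Without the weak array PSMB8 was no longer called (-0.53, adjusted p = 0.103) and PSMB9 was (-0.70, adjusted p = 0.0163). Of the 16 fits that left out 1 array, PSMB8 kept its call in 1, the fit without replicate 2 of that condition. PSMB9 kept it in all but the fit without replicate 2 of control cells with bortezomib at 24 h.

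The response to bortezomib itself was not called different between the lines. At 24 h all 8 differences of the responses were below 0, from -0.55 ± 0.309 for PSMB8 to -0.05 ± 0.219 for PSMB10, with the lowest adjusted p at 0.633. No gene of the 8 had an unadjusted p under 0.05, and 0.0712% of all probes were called. The median of this difference over all tested probes was -0.14. Without the weak array the differences of PSME1, PSME2 and TAPBP were 0.04, 0.004 and 0.07, and that of PSMB8 was -0.19. Those of PSMB9, PSMB10, TAP1 and TAP2 stayed below 0. Without replicate 2 of LP-1-cIAP2-eGFP cells with bortezomib at 24 h, which leaves the weak array to stand for the condition, PSMB8 was called. At 6 h the differences ran from -0.11 to 0.18, with none called by limma and 0 at an unadjusted p under 0.05, and 0.00297% of all probes were called. The errors of these differences are as large as many of the values, so they do not show that the lines responded alike. In untreated cells TAP1 was higher at 24 h than at 6 h by 0.35 ± 0.145 in control and 0.39 ± 0.145 in LP-1-cIAP2-eGFP cells. None of the 8 was called with time by limma, TAP1 alone had an unadjusted p under 0.05 in each line, and 0% and 0.0208% of all probes were called.

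The order of the levels differed among the genes. PSMB8 was lowest in LP-1-cIAP2-eGFP cells with bortezomib at 24 h (mean 11.2), then in control cells with bortezomib at 24 h (12.1), and highest in untreated control cells, whose arrays of 24 h (13.2) and 6 h (13.1) overlapped. In between, the arrays of control cells with bortezomib at 6 h overlapped those of untreated LP-1-cIAP2-eGFP cells at 6 h and at 24 h. TAP1 had another order. It was lowest in treated LP-1-cIAP2-eGFP cells at 24 h (14.3), and its level in control cells with bortezomib at 24 h (14.7) overlapped that of LP-1-cIAP2-eGFP cells with bortezomib at 6 h (14.7). Across the 8 condition means, the patterns of PSMB8 and PSMB9 had a Pearson r of 0.990, those of PSME2 and TAPBP 0.998, and those of TAP1 and TAP2, which form 1 transporter, 0.632. These values share the treatment, the arrays and their scaling, and describe the 8 condition means only. Among 9684 genes above background on all arrays, the pattern most like PSMB8 was that of DGUOK (r = 0.9962), that most like PSMB9 was RNASEH1-DT (0.9969), and that most like TAP1 was CD38 (0.9932). For TAPBP it was MIF (0.9988) with PSME2 at rank 3 (0.9982), and for PSME2 it was C1QBP (0.9985) with TAPBP at rank 2. For PSMB10, PSME1 and TAP2 they were PEX39 (0.9971), H3C1 (0.9949) and BCCIP (0.9969).

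The rest of the 20S barrel moved against the 8 genes. Of its 14 constitutive subunits, counterparts included, 12 were called higher and 0 lower with bortezomib at 24 h on the mean of both lines, with a median of 0.73, against 15.1% of all probes called higher, and 7 were higher at 6 h, against 3.19%. PSMA1 rose by 1.02 ± 0.0851, PSMB7 by 0.98 ± 0.106, PSMB2 by 0.89 ± 0.0857 and PSMB5 by 0.85 ± 0.11. Of 8 other activators, inhibitors and assembly factors, 5 were lower and 1 higher at 24 h, against 19.7% and 15.1% of all probes, with a median of -0.57. PSMG4, an assembly chaperone, fell by 1.47 ± 0.135 on the log2 scale (its other probe gave -3.32), PSME3, the nuclear relative of PSME1, by 1.29 ± 0.15, and PSMF1, an inhibitor, by 0.71 ± 0.104. POMP, the factor that matures new barrels, rose by 0.77 ± 0.131. Between the lines the share of these genes called was near that of all probes, 9.84% lower and 6.26% higher: of the 14 subunits PSMB7 was lower and PSMA3 higher (0.33) in LP-1-cIAP2-eGFP cells, and of the 8 other factors PSME4, another activator, was lower (-0.77) and PSMG4 higher (0.46, with its other probe at -0.56).

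**Figure D5:**
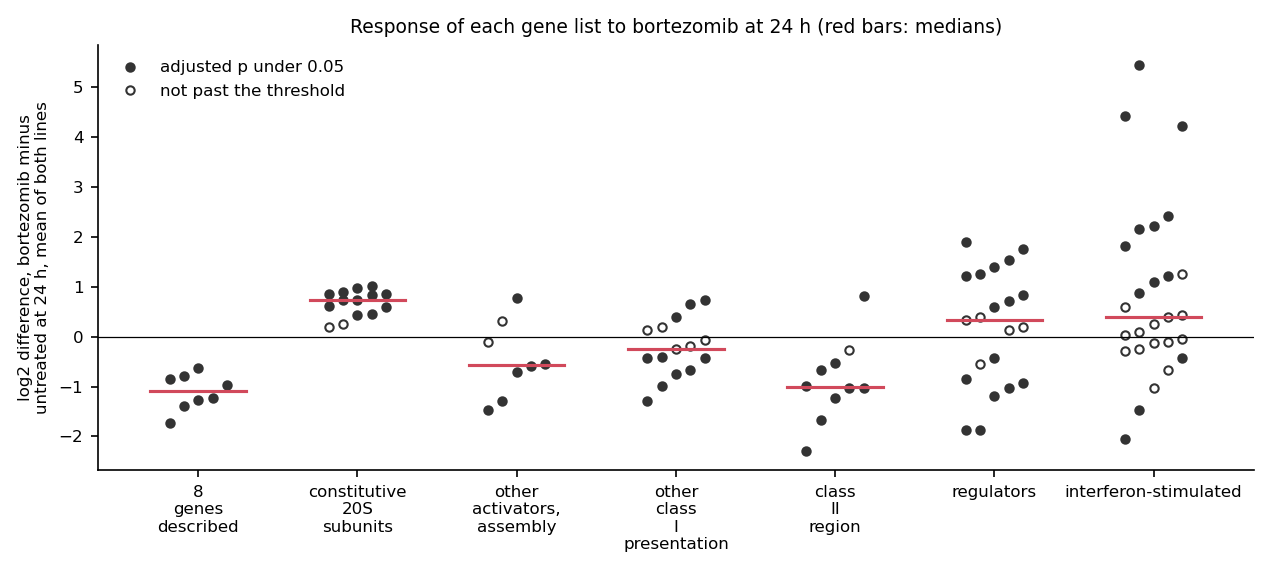
Log2 difference between bortezomib and untreated cells at 24 h, mean of both lines, for each tested gene of 7 lists; filled points had an adjusted p under 0.05, open points did not, and red bars are medians. The median is -1.09 for the 8 genes and -1.01 for genes of the class II region, against 0.73 for the constitutive 20S subunits and 0.40 for interferon-stimulated genes.

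Other genes of class I presentation, among them its activator NLRC5, were mixed. Of 15 genes, 7 were lower and 3 higher at 24 h, against 19.7% and 15.1% of all probes, with a median of -0.25. ERAP1, which trims peptides in the endoplasmic reticulum, fell by 1.29 ± 0.112, TAPBPL, the relative of tapasin, by 0.98 ± 0.117, and B2M, the light chain of class I molecules, by 0.75 ± 0.0876. The chaperone gene CANX rose by 0.74 ± 0.149, and its second probe gave -0.42. Probes of the HLA class I genes can bind RNA of their near-identical relatives, so single HLA genes are uncertain. Between the lines 5 of the 15 were lower and 3 higher in LP-1-cIAP2-eGFP cells, against 9.84% and 6.26% of all probes, with B2M at -0.49 ± 0.0619, HLA-F at -0.52 ± 0.0806, PDIA3 at 0.40 ± 0.0845 (its other probe at 0.00) and ERAP1, opposite to PSMB9, at 0.89 ± 0.079.

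TAP2, PSMB8, TAP1 and PSMB9 stand next to each other on chromosome 6, inside the MHC class II region, between HLA-DOB and HLA-DMB. Of 10 neighbours in that region 8 were lower and 1 higher with bortezomib at 24 h, against 19.7% and 15.1% of all probes, with a median of -1.01. HLA-DMB, above background on 3 of 4 treated arrays, was called lower, and HLA-DOA fell by 1.67 ± 0.123 (its other probe gave -0.41), HLA-DOB by 1.24 ± 0.128 and HLA-DRA by 1.03 ± 0.135, while BRD2, which is no antigen presentation gene, rose by 0.81 ± 0.0967. Between the lines 8 of these 10 were lower in LP-1-cIAP2-eGFP cells too, against 9.84% of all probes, with a median of -1.28. HLA-DOA differed by -2.64 ± 0.0873 (its other probe by -0.67) and HLA-DQA1 by -1.95 ± 0.0984, against -0.53 for PSMB9. The comparison of the lines and that of the treatment share arrays.

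Other interferon-stimulated genes were called higher more often than lower at 24 h. Of 27 tested, 10 were higher and 3 lower, against 15.1% and 19.7% of all probes, with a median of 0.40. IFIT3 was higher by 5.45 ± 0.237, IFIT1 by 4.43 ± 0.257 and GBP2, above background on 3 of 4 treated arrays, by 2.41 ± 0.231. IFI44 was above background on none of the 4 untreated arrays and on all 4 treated ones, at least 15.7-fold higher, counted from the lowest signal that passed as above background on each array. UBE2L6, which feeds the ubiquitin-like modifier ISG15, fell by 0.44 ± 0.0861. MX2 was called lower, but was above background on 1 of 4 treated arrays, so the size of its difference was not measured. At 6 h 4 of the 27 were higher and 0 lower, against 3.19% and 2.74% of all probes. Between the lines 14 of the 27 were lower in LP-1-cIAP2-eGFP cells and 0 higher, against 9.84% and 6.26% of all probes, with a median of -0.39. With the slide as a block 9 were lower, and the share of all probes in that fit is not given here. The 14 include OASL and GBP1, which passed the filter on low signal through control arrays alone and were above background on 0 of 8 LP-1-cIAP2-eGFP arrays. TRIM22, also among the 27, was above background on 2 control arrays and on 0 LP-1-cIAP2-eGFP arrays. The filter thus partly sets the count over the 27, and no conclusion is drawn from that count. Of the 10 genes above background on all 16 arrays, tested among such probes only, 5 were lower and 1 higher, against 16.1% and 16.8% of those probes. ISG15, among them, differed by -2.31 ± 0.16. MX1 and PARP9 were called lower, but were above background on 5 and 4 of 8 LP-1-cIAP2-eGFP arrays, so the size of their differences was not measured. OASL was above background on all 8 control and 0 of 8 LP-1-cIAP2-eGFP arrays, at least 2.40-fold lower.

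Regulators of the interferon, NF-kB and proteasome genes split in both directions at 24 h. Of 21 tested, 7 were lower and 9 higher, against 19.7% and 15.1% of all probes. Without the weak array these counts were 7 and 11, those of the interferon-stimulated genes 5 and 12, those of the class II region 8 and 1, those of the class I genes 7 and 3, and 13 of the 14 constitutive subunits were higher. The shares of all probes above are those of the fit with all arrays. Those without the weak array are not given here, so the counts without it have no share beside them. With all arrays, SOCS1, an inhibitor of interferon signalling, rose by 1.89 ± 0.24 and IRF7 by 1.75 ± 0.121. The interferon receptor gene IFNAR2 fell by 1.87 ± 0.112. IRF2, which binds the core printed above, was called lower, but was above background on 1 of 4 treated arrays, so the size of its difference was not measured. IRF1, the activator best known for these promoters, had a difference of 0.39 ± 0.155 with an adjusted p of 0.0784. NFE2L1, the regulator of the constitutive subunits, rose by 1.10 ± 0.189 at 6 h and 1.54 ± 0.189 at 24 h. Between the lines 8 of the 21 were lower and 3 higher in LP-1-cIAP2-eGFP cells, against 9.84% and 6.26% of all probes. IRF1 was lower by -1.37 ± 0.11, SOCS1 by -1.26 ± 0.17 and RELB by -1.09 ± 0.0722, and IRF8 was higher by 0.88 ± 0.216.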

How the data were processed

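RNA of LP-1-cIAP2-eGFP and control cells had been hybridised in 1 colour to Agilent SurePrint G3 Human arrays. The deposited intensity values are the processed signals of Agilent Feature Extraction 10.7.3.1, background-subtracted and not normalized between arrays. The authors also deposited log2 values, quantile normalized in GeneSpring and centred on each probe's median. Each column correlated with its own array at r of at least 0.9986 and with any other at most at 0.424.

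Outlier-marked spots were dropped, log2 signals averaged per probe and quantile normalized, and 33731 of 50599 probes kept that were well above background on both arrays of a condition. Arrays give no counts, so their number limits the precision. A limma 3.58.1 (R 4.3.3) model with 1 mean per condition was tested with moderated statistics, and the code was tested on simulated data. RefSeq accessions named 55.7% of the probes. Of the marker genes, 1 is not reported here. The alternatives were 75th percentile scaling, normexp background, the authors' log2 table, other filters, and replicate and slide blocks. Further ones were array weights, which were equal for both replicates of a condition, ordinary ANOVA, the mean of a gene's probes and leaving out each array. Beside the 8 genes and 3 counterparts, the text names the 4 called genes with the largest difference per list, with others added after their values were seen. The genes and lists were chosen with earlier results of these data known. Replicate numbers were not used as pairs in the main model. Over 28 pairs of conditions, the deviations of same-numbered arrays correlated at -0.11 to 0.239, with 7 pairs above 0.1. Such low values do not show that the samples were unpaired, since array noise can hide a pairing.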

Additional observations from a re-analysis of the deposited data

How the results depend on the processing

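With bortezomib at 24 h on the mean of both lines, all 8 genes were called lower under each alternative. Over the 1118 values of called genes recomputed under the alternatives, 0 changed sign, 974 kept their call and 144 lost it. These results were called in the main fit and recomputed on largely the same arrays, so a kept sign was likely beforehand. Values not called could change sign, as did the 24 h differences of the responses of PSME1, PSME2 and TAPBP without the weak array. Leaving out 1 array at a time gave 4 to 8 genes lower in control cells and 7 to 8 in LP-1-cIAP2-eGFP cells. Weights for noise, equal for both arrays of a condition, gave 5 in LP-1-cIAP2-eGFP cells. At 6 h, where 0 were called, the weights called 2 in control cells and 3 on the mean, the filter on all arrays 2 and the ordinary 3-way ANOVA 1 on the mean. On the average of the conditions, the 4 genes lower in LP-1-cIAP2-eGFP cells became 1 with 75th percentile scaling, 2 without a filter, 1 with the slide as a block and 2 to 4 with an array left out. In single conditions the count between the lines was 0 in untreated cells at 6 h (1 with normexp, 1 with the filter on all arrays, 2 with weights, 1 with ANOVA, 0 to 1 with an array left out), 0 in untreated cells at 24 h (1 with the filter on all arrays, 1 with ANOVA, 0 to 1) and 0 with bortezomib at 6 h (1 with that filter, 1 with weights, 1 with ANOVA, 0 to 1). With bortezomib at 24 h it was 2 (0 with 75th percentile scaling, 0 with weights, 1 with normexp, the authors' table, no filter, the slide block or the mean of a gene's probes, and 0 to 3 with an array left out). The difference between the responses at 24 h had 0 genes called and 0 to 1 with an array left out. Between the alternatives the lists of other genes kept the sign of their median with bortezomib at 24 h on the mean of both lines. The replicate number as a block changed no count, with 4 genes lower between the lines and 8 lower with bortezomib at 24 h in each line. With 75th percentile scaling the median over all probes at 24 h moved from -0.09 to 0.13, and the 8 genes ranged from -1.96 to -0.81. The cause of these changes was not tested. With 2 arrays a condition, small differences could not be told from none.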
